A study of Mus musculus with 6 samples.

Results

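The genes described here are 10 genes of glycolysis and the hypoxia response, P4ha1, Hif1a, Slc2a1, Hk2, Aldoa, Tpi1, Pgk1, Eno1, Pkm and Ldha, chosen by name out of 19848 genes in the RNA table, which listed all 10. The data are CITE-seq, a method that sequences the RNA of a single cell together with tags on antibodies bound to it, on Percoll-enriched brain cell suspensions from female C57Bl/6 mice. The 4 groups were young mice (12 weeks) given vehicle (young control), young mice given antibiotics that depleted the gut microbiota (young ABX), and aged mice (72 weeks) of the same 2 kinds (aged control and aged ABX). Per the labels, 24 brains, 6 from each group, were combined into 12 pools, 3 a group, and the pool was the replicate. Young and aged pools were loaded in separate wells, so age and well cannot be told apart, and hashtags 1 to 3 marked control pools and 4 to 6 ABX pools at both ages, so hashtag and treatment cannot be told apart either. The sources used here do not give the dose or length of the antibiotic course.

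Glycolysis splits glucose into pyruvate. Slc2a1 (GLUT1) carries glucose into the cell, Hk2 (hexokinase) traps it by phosphorylation, Aldoa (aldolase) splits the sugar, Tpi1 (triosephosphate isomerase) interconverts the products, Pgk1 (phosphoglycerate kinase) and Pkm (pyruvate kinase) make ATP, Eno1 (enolase) acts between these kinases, and Ldha (lactate dehydrogenase A) turns pyruvate into lactate. Hif1a encodes the oxygen-regulated subunit of the transcription factor HIF-1, which in low oxygen raises the transcription of glycolytic genes. P4ha1 is the catalytic subunit of the collagen prolyl 4-hydroxylase of the endoplasmic reticulum (ER), and is itself a known HIF-1 target. Microglia, the resident macrophages of the brain, are known to turn towards glycolysis when activated.

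HIF-1 binds DNA at sites built on the core ACGTG or GCGTG, so the bases before the start sites of the genes were searched for both cores on both strands. The windows below, from RefSeq on GRCm38.p6, hold the 250 bases before the start of 3 genes and show how many cores each carries. These are 3 of the 4 genes called lower in microglia of aged ABX mice. Capitals mark the cores, read on either strand, and a CACGTG stretch counts as 2 overlapping places, 1 on each strand. P4ha1 lies at chr10:59323046-59323295 on the plus strand with 3 places, Hk2 at chr6:82774455-82774704 on the minus strand with 2, and the first listed start of Ldha at chr7:46845554-46845803 on the plus strand with 5.
P4ha1: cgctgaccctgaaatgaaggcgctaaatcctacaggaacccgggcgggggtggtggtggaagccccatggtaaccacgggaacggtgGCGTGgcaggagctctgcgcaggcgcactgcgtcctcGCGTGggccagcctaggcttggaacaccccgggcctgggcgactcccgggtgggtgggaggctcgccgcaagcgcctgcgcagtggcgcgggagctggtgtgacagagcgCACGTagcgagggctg
Hk2: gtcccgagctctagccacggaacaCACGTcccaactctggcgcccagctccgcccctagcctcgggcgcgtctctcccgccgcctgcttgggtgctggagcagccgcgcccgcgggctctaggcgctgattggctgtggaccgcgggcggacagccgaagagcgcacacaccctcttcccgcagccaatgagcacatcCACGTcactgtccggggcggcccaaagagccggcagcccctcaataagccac
Ldha: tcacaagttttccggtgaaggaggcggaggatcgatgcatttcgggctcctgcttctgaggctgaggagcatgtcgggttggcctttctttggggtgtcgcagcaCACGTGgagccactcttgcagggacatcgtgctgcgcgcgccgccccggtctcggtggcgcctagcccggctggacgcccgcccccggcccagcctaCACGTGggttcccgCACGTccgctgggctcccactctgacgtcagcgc
Of the 10 genes, 9 had a core in at least 1 of their listed windows, and Tpi1 had none. Aldoa, the other gene called lower, had 0, 1 and 1 places at its 3 listed starts, and the second Ldha start had 1. Among genes not called there, Hif1a had 3, Pgk1 and Slc2a1 2 each, Eno1 1 to 2 and Pkm 0 to 1 by start. Among all 27025 genes with a window, tested here or not, the share was 41.5%, and among all 32851 windows 38.6%. The share among only the genes tested here was not computed. A match in these letters is a description and not a measured binding site.

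The RNA values were SCT values, UMI numbers that SCTransform had corrected for sequencing depth, and a level below is the mean SCT value per cell of 1 type in 1 pool. Raw UMI totals ran from 5745242 to 13742781 a pool, and 13052 cells were listed in 10 types, of which 9403 were microglia (475 to 1186 a pool). The microglia carried all 8 microglial markers checked. Their summed level was 125 in microglia and 42.3 in the cells called BAM, which carried the border macrophage markers at a summed level of 25.7 against 0.07 in microglia. Neutrophil markers summed to 1964 in the Ly6C+Ly6G+ type, B cell markers to 88.0 in BCells, T cell markers to 35.9 in CD8+ cells and NK and ILC markers to 38.6 in ILCs. Monocyte markers summed to 83.3 in Ly6CHigh cells, which also carried neutrophil markers at 119, and BCells carried these at 61.0. Ly6CLow cells had monocyte, B cell, neutrophil and microglial markers at like sums (14.3, 16.3, 16.0 and 14.2). CD8+ cells also carried NK and ILC (18.3), B cell (17.2) and neutrophil markers (11.7). Erythroid markers averaged 38.7 in CD8+ cells (0.692 to 342 over pools), 51.3 in Ly6CHigh and 35.0 in Ly6CLow cells. These sums are means over all pools with cells of the type, also those with under 20 cells. Cells of low depth were common in some aged types: 54.7% of aged Ly6CHigh cells had under 2000 raw UMIs, against 1.41% of young ones. A total of 59 cell barcodes occurred in both wells. Reads of Eno1 and Aldoa could be split with near copies, or lost because of them, which was not tested. Eno1b and a second Aldoa feature averaged 0.00559 and 0.000560 in microglia.

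The first question was whether microbiota depletion moved these genes in microglia. In aged mice 4 of the 10 were lower with ABX: P4ha1, Hk2, Aldoa and Ldha. P4ha1 had the largest difference. Its level was 0.912, 1.04 and 0.920 in the 3 aged control pools and 0.575, 0.544 and 0.634 in the 3 aged ABX pools. Every aged ABX pool lay below every aged control pool, as for 12.0% of all genes tested, and the mean fell from 0.957 ± 0.0715 to 0.584 ± 0.0457 (SD, n = 3 pools each), a drop of 39.0%. The share of microglia with a value above 0 was 55.5% in aged control and 39.9% in aged ABX pools. On the log2 scale after adding 0.05, P4ha1 fell by 0.67 ± 0.08 (SE; limma, Benjamini-Hochberg adjusted p = 0.000144).

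Hk2, which commits glucose to the cell, had levels of 1.61, 1.48 and 1.59 in aged control pools and 1.24, 1.17 and 1.23 in aged ABX pools. The pools did not overlap, and Hk2 fell by 0.34 ± 0.07 on the log2 scale (limma, adjusted p = 0.00685). Aldoa was at 1.54, 1.78 and 1.65 in aged control pools and 1.34, 1.37 and 1.40 in aged ABX pools, again with no overlap, and fell by 0.26 ± 0.06 (limma, adjusted p = 0.0269). Ldha was at 1.02, 1.11 and 1.03 in aged control pools and 0.908, 0.873 and 0.912 in aged ABX pools. It fell by 0.22 ± 0.06 (limma, adjusted p = 0.0433), the smallest of the 4 changes. Over all 8759 genes tested in this comparison 1.64% were called lower. P4ha1 and Hk2 were called under all 20 alternative settings, P4ha1 at -0.43 with 0.5 added in place of 0.05. Ldha lost its call in 10 of 20, among them leaving out any 1 of the 6 aged pools or young control replicate 1 or 3 (log2 difference between -0.24 and -0.18), and Aldoa lost it in 6, among them without aged control replicate 2 or 3 or aged ABX replicate 1 or 2 (-0.27 to -0.21).

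The other 6 genes were not called in aged ABX microglia. Eno1 was at 1.03, 1.11 and 1.01 in aged control pools and at 0.898, 0.953 and 0.962 in aged ABX pools, which did not overlap (log2 difference -0.15 ± 0.06; limma, adjusted p = 0.145). Pgk1 differed by -0.18 ± 0.08 (limma, adjusted p = 0.226) with overlapping pools. Tpi1, Pkm and Hif1a lay close to 0, with 95% intervals of -0.15 to 0.16, -0.09 to 0.13 and -0.18 to 0.12. The transporter Slc2a1 had the widest interval, -0.29 to 0.12. Its highest single-cell values were 24, 42 and 4 in the aged ABX pools and 4, 3 and 5 in the aged control pools. Hif1a had levels of 0.691, 0.758 and 0.667 in aged control pools against 0.713, 0.661 and 0.697 in aged ABX pools, and these overlapped.

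**Figure D1:**
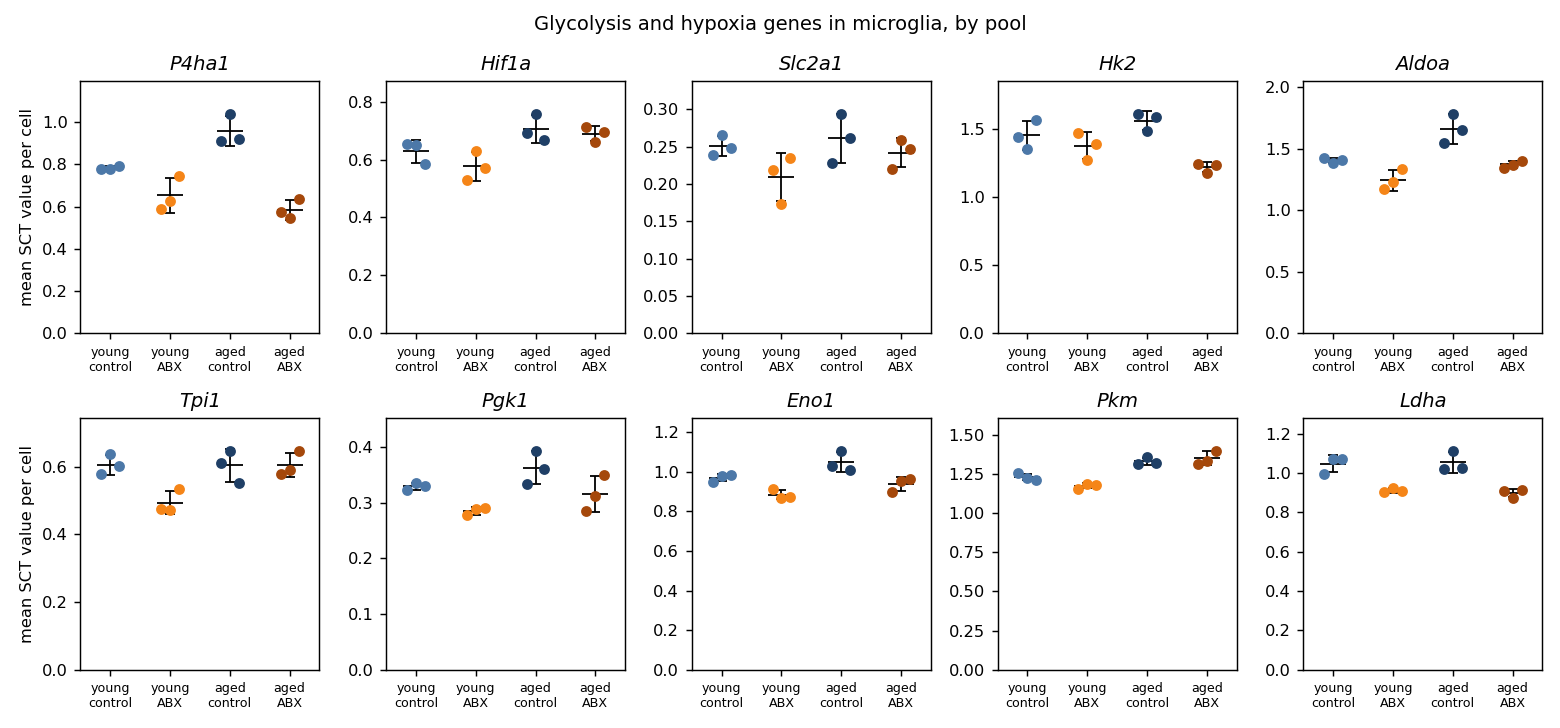
Mean SCT value per cell in microglia for each of the 10 genes; each point is 1 pool, the horizontal bar the mean and the whiskers the SD of 3 pools, in young control, young ABX, aged control and aged ABX mice. The aged ABX pools of P4ha1 (0.544 to 0.634) lie below the aged control pools (0.912 to 1.04), while those of Pkm and Hif1a overlap.

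In young mice no gene of the 10 passed the test, against 0.137% of all genes in either direction. All 10 estimates were below 0, with a median of -0.18 beside -0.02 over all genes. For 8 of the 10 the young ABX pools lay wholly below the young control pools, as they did for 9.56% of all genes tested. Tpi1 had the largest estimate: 0.577, 0.638 and 0.601 in young control pools and 0.476, 0.472 and 0.534 in young ABX pools (log2 difference -0.27 ± 0.07; limma, adjusted p = 0.154). P4ha1 was at 0.780, 0.779 and 0.793 in young control and at 0.587, 0.628 and 0.745 in young ABX pools (-0.25 ± 0.08; limma, adjusted p = 0.234). Ldha was at 0.996, 1.07 and 1.07 against 0.901, 0.922 and 0.907 (-0.19 ± 0.06; limma, adjusted p = 0.214). Both genes therefore had separate pools at this age as well, without passing. The estimates of Slc2a1, Pgk1, Aldoa, Eno1, Hif1a, Hk2 and Pkm ran from -0.22 to -0.06.

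Averaged over both ages, 5 of the 10 genes were lower with ABX, where 3.24% of all genes were called lower. P4ha1 fell by 0.46 ± 0.06 on the log2 scale (limma, adjusted p = 0.000181), Aldoa by 0.22 ± 0.04 (0.00703), Hk2 by 0.21 ± 0.05 (0.0134), Ldha by 0.20 ± 0.04 (0.00617) and Eno1 by 0.14 ± 0.04 (0.0482). The first 4 were called under all 19 alternatives of this contrast. Eno1 kept its call in 4 of 19; leaving out any single pool other than aged ABX replicate 3 ended it, with log2 differences of -0.15 to -0.12. Pgk1 (-0.18 ± 0.05; limma, adjusted p = 0.0629) was not called, but was without aged ABX replicate 3 (-0.21). The median over the 10 genes was -0.17 beside -0.01 over all genes.

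Whether the ABX difference itself depended on age was tested as aged minus young. None of the 10 genes was called, and 0% of all 8759 genes were; 579 had an unadjusted p under 0.05 by limma. P4ha1 had a difference of -0.42 ± 0.11 (limma, adjusted p = 0.378), Tpi1 of 0.27 ± 0.10 and Hk2 of -0.27 ± 0.09 (both adjusted p = 0.612). The aged and young responses of these genes were therefore not shown to differ.

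**Figure D2:**
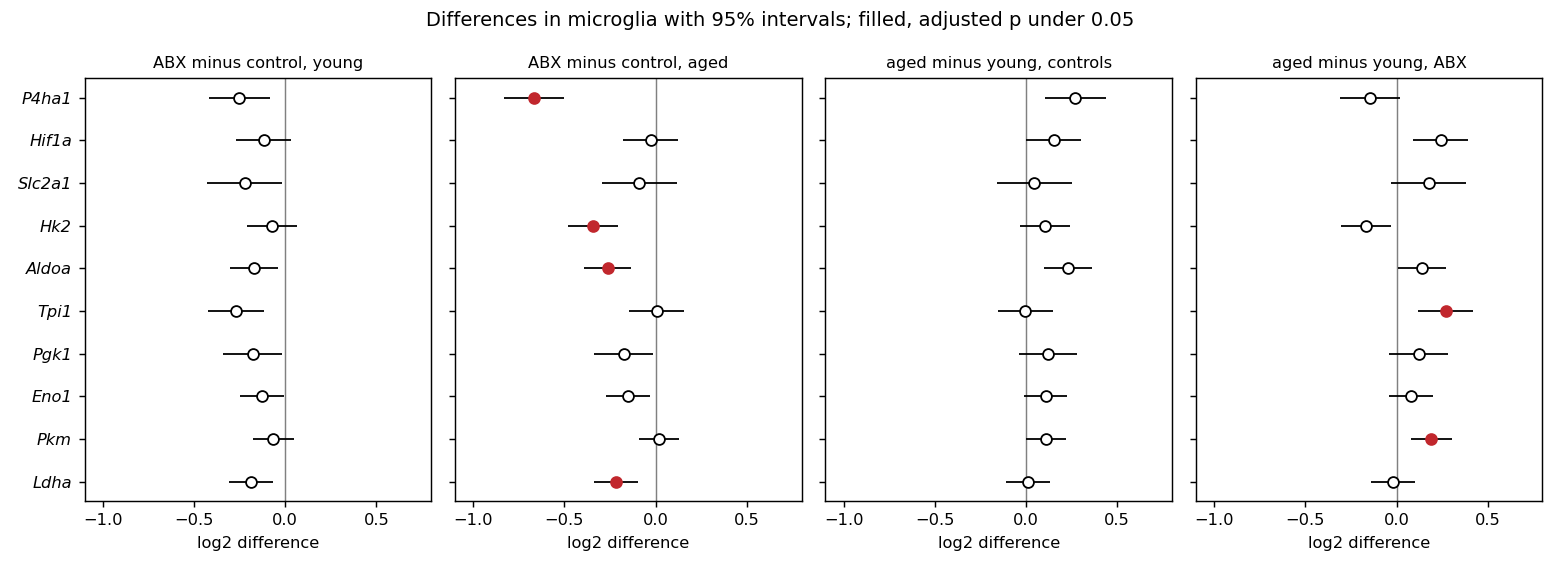
Log2 differences in microglia (x axis) for the 10 genes (y axis) in 4 comparisons, with 95% intervals from limma; filled points passed an adjusted p of 0.05. P4ha1 stands at -0.67 in aged ABX against aged control mice, and no gene is filled in the young ABX or the control age comparison.

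Age was compared within each treatment; these comparisons share pools with those above. Among control mice no gene of the 10 was called, against 2.66% of all genes. P4ha1 and Aldoa came nearest: P4ha1 was at 0.784 ± 0.00781 in young and 0.957 ± 0.0715 in aged control pools (log2 difference 0.27 ± 0.08; limma, adjusted p = 0.0867), and Aldoa at 1.40 ± 0.0179 and 1.66 ± 0.120 (0.23 ± 0.06; adjusted p = 0.0586). In both genes, and in Eno1, Pkm and Hif1a, every aged control pool lay above every young control pool, as for 12.6% of all genes tested. P4ha1 passed in 5 of 21 alternatives, among them cells with 4000 to 12000 raw UMIs (0.35), and Aldoa in 5, and leaving out young ABX replicate 3 was enough to call either (0.27 for P4ha1, 0.23 for Aldoa), as was leaving out aged control replicate 1 for Aldoa (0.28).

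Among ABX mice Tpi1 and Pkm were higher in aged pools, where 4.95% of all genes were called higher (434 of 539 called in either direction). Tpi1 was at 0.476, 0.472 and 0.534 in young ABX and at 0.579, 0.591 and 0.646 in aged ABX pools, and rose by 0.27 ± 0.07 on the log2 scale (limma, adjusted p = 0.0307). Pkm was at 1.16, 1.19 and 1.18 in young ABX and at 1.31, 1.33 and 1.40 in aged ABX pools, and rose by 0.19 ± 0.05 (limma, adjusted p = 0.0351). Neither gene's pools overlapped, nor did those of Aldoa and Hif1a, also higher in aged pools; 15.4% of all genes tested had wholly higher aged pools. Neither call held in every setting: Tpi1 lost its call without young ABX replicate 1 or 2 or aged ABX replicate 2 or 3 (0.23 to 0.29), and Pkm without any young ABX replicate or aged ABX replicate 2 or 3 (0.17 to 0.20). Pkm was also at 0.12 in cells of 4000 to 12000 raw UMIs (adjusted p = 0.221). P4ha1 and Hk2 were at -0.15 ± 0.08 and -0.17 ± 0.07 in this comparison, neither called, while their control comparison gave 0.27 and 0.10. For Hk2 the aged ABX pools (1.17 to 1.24) lay wholly below the young ABX pools (1.27 to 1.47). Of all genes tested 6.85% had wholly lower aged pools. Hif1a was at 0.24 ± 0.07 (limma, adjusted p = 0.0546) and was called without young ABX replicate 2 (0.30) or aged control replicate 2 (0.24). Of 8 microglial markers, P2ry12 (-0.33) and Csf1r (-0.27) were lower in aged ABX than in young ABX mice, calls lost without young ABX replicate 3 or aged ABX replicate 2 (-0.28 to -0.25), and the summed list lay at 127 to 136 in young and 111 to 119 in aged ABX pools. The immunoglobulin light chain gene Igkc, a marker of the B cell lineage, was higher with age by 2.64 in controls and 2.68 in ABX mice, in all 21 alternatives of each. B cell markers summed to 1.73 to 2.08 in young and 2.59 to 3.95 in aged pools. Dissociation genes summed to 279 to 317 in young and 263 to 276 in aged pools. The part of these markers in the age results was not tested.

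Other genes of the same pathways were read from lists. Of 22 further glycolysis genes, 17 were tested, and in aged ABX microglia 1 was lower and none higher, beside 1.64% of all genes called lower. That gene was Pfkl, the liver-type phosphofructokinase, which fell by 0.35 ± 0.08 (limma, adjusted p = 0.0249) from 0.583 ± 0.0645 to 0.445 ± 0.0420 (SD, n = 3 pools each). It lost this call without aged control or aged ABX replicate 2 or 3 (-0.36 to -0.28). Averaged over both ages 3 were lower, Pfkl (-0.29), Hk3 (-0.23) and the phosphoglycerate mutase Pgam1 (-0.20), and 1 was higher, the transporter Slc2a3 (0.29), which was scarce at 0.0448 to 0.0738 a cell in the group means, and ran from 0.06 to 0.47 with 0.5 or 0.01 added in place of 0.05. The median of the 17 was -0.03, beside -0.01 over all genes. Of all 8759 genes 473 were called in this average, 284 of them lower. Pfkl held under all 19 alternatives of the average. Pgam1 held in 16 and lost its call without young control replicate 3 or aged control replicate 2 (-0.19), which left 1 lower gene of the list. Hk3 and Slc2a3 held in 9 each: 8 of the 12 single-pool removals ended the call of Hk3 (-0.24 to -0.20), all but young control replicate 1, young ABX replicate 3, aged control replicate 3 and aged ABX replicate 1, and 9 ended that of Slc2a3 (0.24 to 0.32), all but young ABX replicate 1, aged control replicate 3 and aged ABX replicate 1. Between young and aged ABX mice Pfkfb3, which makes the activator of phosphofructokinase, rose by 0.50 ± 0.08 (limma, adjusted p = 0.000805), from 0.479, 0.553 and 0.449 to 0.678, 0.752 and 0.724.

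Of 10 HIF subunits and regulators 7 were tested, and 1 changed with ABX in aged mice. Of all 8759 genes 283 were called in this comparison, 144 of them lower. Egln1, the oxygen-sensing hydroxylase that marks HIF for destruction, fell by 0.39 ± 0.08 (limma, adjusted p = 0.0158), from 0.321, 0.391 and 0.342 to 0.251, 0.263 and 0.255. It lost the call without aged control replicate 2 (-0.32). Of 28 further hypoxia targets only 15 were tested, 8 of the others being below 0.01 a cell in microglia, and 1 was called. Ddit4, a stress-induced inhibitor of mTOR signalling, was higher in aged ABX mice by 1.46 ± 0.32 (limma, adjusted p = 0.0173), with pools at 0.372, 0.164 and 0.214 against 0.721, 1.04 and 0.535. Its call was lost without aged control replicate 2 or 3 or aged ABX replicate 2 (1.22 to 1.40). The median of the 15 was 0.02, beside -0.01 over all genes and -0.17 over the 10 genes above.

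P4ha1 works in the ER together with P4hb, which was not called in aged ABX microglia (-0.04 ± 0.06, limma, adjusted p = 0.792). P4ha2 and P4ha3 were below 0.01 a cell and were not tested. The list used here joined these P4ha1 partners with ER chaperones and genes of the ER stress response. The genes called lower in aged ABX microglia were of the latter kinds and not the P4ha1 partners. Of 20 listed 18 were tested, and in aged ABX microglia 9 were lower and none higher, with all 18 estimates below 0 and a median of -0.28. Over all 8759 genes tested 1.64% were called lower in this comparison, and the median was -0.01. The list was chosen with earlier results of these data known. Hspa5 (BiP), the main ER chaperone, was at 8.95, 10.5 and 7.81 in aged control and 4.94, 5.05 and 6.12 in aged ABX pools, and fell by 0.75 ± 0.10 (limma, adjusted p = 0.000731). Calr (calreticulin) fell by 0.44 ± 0.07, Creld2 by 0.44 ± 0.10 and Ddit3 (CHOP), a transcription factor of the ER stress response, by 0.44 ± 0.09. Averaged over both ages 10 were lower, where 3.24% of all genes were called lower. They were led by Hspa5 (-0.50), Creld2 (-0.45), Manf (-0.37) and Calr (-0.37), each called under all 19 alternatives. In young mice none passed, although all 18 estimates were below 0 with a median of -0.16, beside -0.02 over all genes. The count in aged mice was 4 without aged control replicate 1 and 5 without aged control replicate 2 or aged ABX replicate 1; Creld2 lost its call without replicate 1 or 2 of either aged group (-0.48 to -0.36), and Ddit3 without aged control replicate 1 (-0.35). Between young and aged ABX mice 539 of all 8759 genes were called, 434 of them higher. In that comparison 4 of the list were lower, with Hspa5 at -0.60, Pdia4 at -0.30, Xbp1 at -0.27 and Manf at -0.26. That count was 1 or 2 without young ABX replicate 2 or 3 or aged ABX replicate 1 or 2, and Hspa5 was called in all 21 alternatives.

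**Figure D3:**
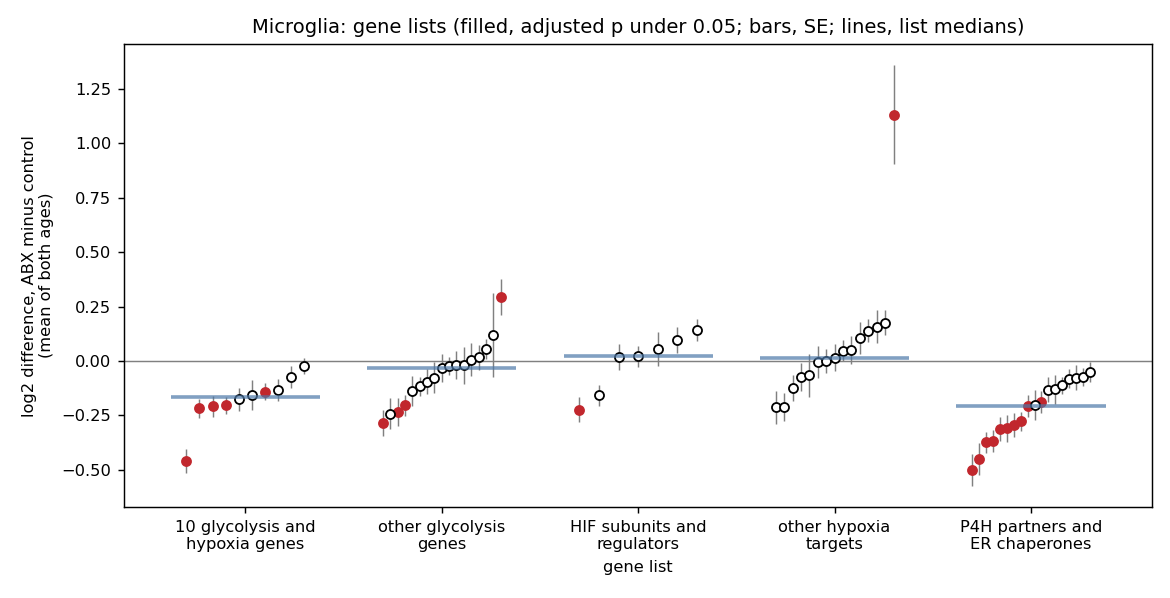
Log2 differences in microglia, ABX minus control averaged over both ages (y axis), for each tested gene of 5 lists (x axis); whiskers are the SE, filled points passed an adjusted p of 0.05 and horizontal lines are list medians. The lines stand at -0.17 for the 10 genes, -0.20 for the ER list and 0.02 for the other hypoxia targets.

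Markers of other cells and of tissue dissociation were read in the same microglia. For ABX in aged mice 283 of all 8759 genes were called, 144 of them lower. Of 9 dissociation genes tested 1 was called in aged mice, Dusp1, an immediate early phosphatase, which was higher with ABX by 0.42 ± 0.07 (limma, adjusted p = 0.00413); the summed list lay at 263 to 268 in aged control and 268 to 276 in aged ABX pools. Of 8 microglial markers 1, Gpr34, was lower (-0.39), a call lost without aged control replicate 1 or aged ABX replicate 2 (-0.37 to -0.28). Neutrophil markers summed to 2.30 to 6.47 in young control and 2.39 to 20.8 in young ABX pools. In aged control pools these markers summed to 0.638 to 0.734, and in aged ABX pools to 1.10 to 3.02. Over all genes 2.66% were called for age in controls in either direction. In ABX mice 539 of 8759 were, 434 of them higher. Of the 6 neutrophil markers tested, 5 were lower with age in either treatment. These counts were 0 to 2 in controls without young control replicate 1 or 2 or any aged control pool, and 1 to 3 in ABX mice without young ABX replicate 2 or 3 or aged ABX replicate 1 or 3. Erythroid markers varied between 1.10 and 43.9 among single pools. Their part in the results above was not tested. Border macrophage, T cell and astrocyte markers summed to at most 0.198 in every pool. Their most abundant genes were Mrc1 (0.0228), Trbc2 (0.0180) and Gja1 (0.0109), and Cd163, Lyve1, Cd3e and Aqp4 were each below 0.01. Endothelial markers summed to 0.152 to 0.330 in single pools, and NK and ILC markers to 0.299 to 0.497. Oligodendrocyte markers summed to 0.449 to 0.754 and monocyte markers to 1.00 to 2.01. The part of these lists was not tested either. In cells with 4000 to 12000 raw UMIs P4ha1 and Hk2 were still called lower in aged ABX mice.

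Across cell types, P4ha1 and Hk2 were highest in microglia. Aldoa, Pgk1, Eno1, Pkm and Ldha were higher than in microglia in the Ly6CHigh and Ly6C+Ly6G+ types that carried monocyte and neutrophil markers. The same genes were also called above microglia in Ly6CLow cells, CD8+ cells and ILCs, and all but Eno1 in BCells. Ldha averaged 1.65 in Ly6CHigh cells, against 2.32 in CD4+ cells and 2.15 in ILCs. P4ha1 averaged 0.745 ± 0.157 in microglia (12 pools), 0.463 ± 0.118 in BAM (11), 0.265 ± 0.0907 in Ly6CLow (12) and 0.0846 to 0.147 in the other types. Hk2 averaged 1.40 ± 0.147 in microglia, 0.723 ± 0.201 in BAM, 0.585 ± 0.104 in Ly6CHigh (9 pools), 0.512 ± 0.156 in Ly6CLow, 0.412 ± 0.180 in Ly6C+Ly6G+ (6) and 0.0859 to 0.174 in lymphoid types. For Hk2 the steps from microglia to BAM and from Ly6C+Ly6G+ to CD4+ exceeded the larger SD of the neighbours, while the steps between BAM, Ly6CHigh, Ly6CLow and Ly6C+Ly6G+ did not. For P4ha1 only the steps from microglia to BAM, BAM to Ly6CLow and Ly6CLow to CD8+ did. Hif1a was highest in CD4+ cells at 1.43 ± 0.210 (4 pools), a type not tested against microglia. It averaged 0.748 ± 0.307 in Ly6CHigh, 0.650 ± 0.0642 in microglia and 0.368 to 0.579 in the other types. Only its step from CD4+ to Ly6CHigh exceeded the larger SD.

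**Figure D4:**
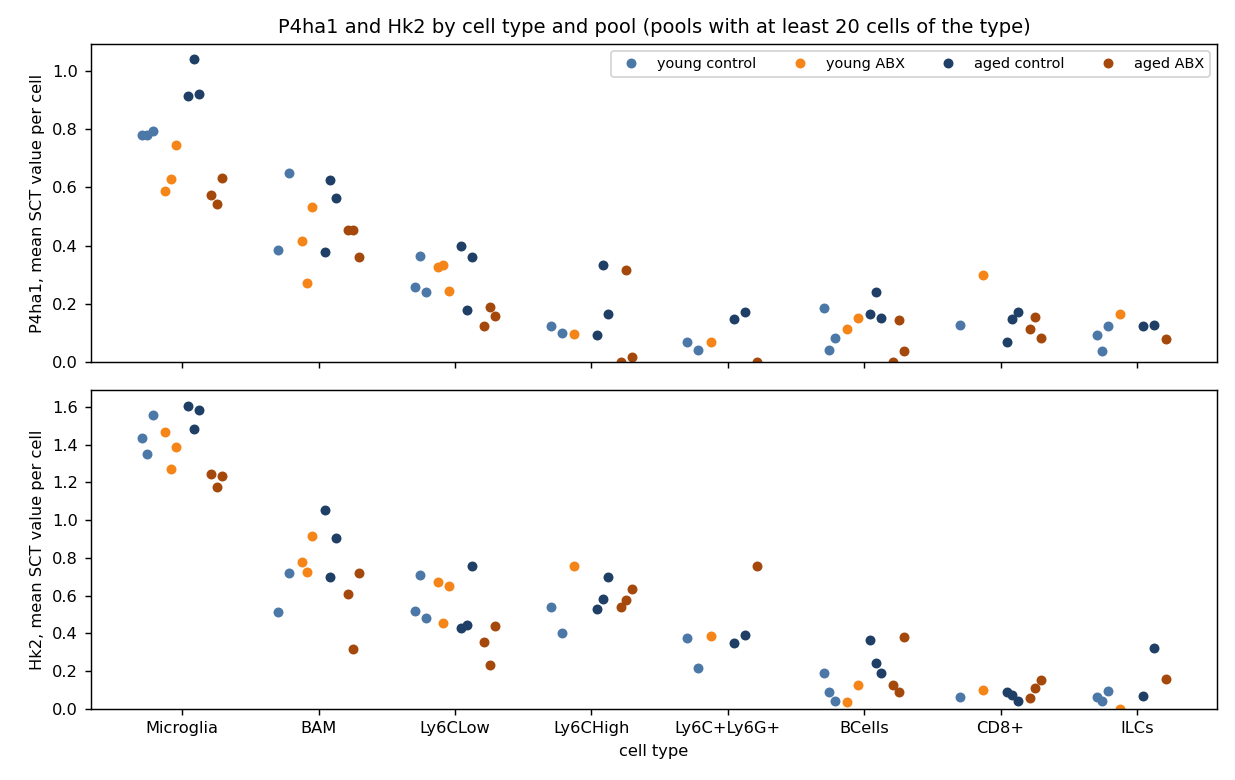
Mean SCT value per cell (y axis) of P4ha1 (top) and Hk2 (bottom) in 8 cell types (x axis); each point is 1 pool with at least 20 cells of the type, coloured by group. Microglia average 0.745 for P4ha1 and 1.40 for Hk2, above each of the other 7 types.

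These differences were tested on pool means with the pool as a block, and many genes differ between types, so the share of all genes called is given beside each count. BAM, in which microglial markers were also present, were lower for 5 of the 10 genes (15.5% of all genes lower) and higher for none. Those 5 were Hk2 (-0.97 ± 0.20), P4ha1 (-0.66), Hif1a (-0.59), Eno1 (-0.38) and Pkm (-0.37). P4ha1 was not called with 0.01 added in place of 0.05 (-0.71). With control pools alone, or with young pools alone, only P4ha1 and Hk2 of these were called. The other 5, with Slc2a1 at -0.52 and Tpi1 at 0.24, did not pass; Slc2a1 did without replicate 1 of young control, young ABX or aged control (-0.69 to -0.56).

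Ly6C+Ly6G+ cells were higher for 5 genes (14.4% of all genes higher) and lower for 4 (60.3% lower). Pkm averaged 5.51 ± 0.715 in them against 1.27 ± 0.0789 in microglia, a log2 difference of 2.11, and Pgk1 1.77 ± 0.226 against 0.323 ± 0.0348, a difference of 2.28. Ldha, Aldoa and Eno1 were higher by 1.47, 1.34 and 1.24. P4ha1 (-2.81), Hk2 (-1.82), Hif1a (-0.62) and Tpi1 (-0.50) were lower; Hif1a lost its call without aged ABX replicate 3 (-0.46), and Tpi1 without that pool or young control replicate 3 (-0.43 to -0.34). The median of all genes was itself -0.77 in this comparison and between -0.26 and -0.12 in the other 6. Ly6CHigh cells had these 5 genes higher, and Tpi1 as well (6 higher, beside 22.8% of all genes; 2 lower, beside 38.7%). Pgk1 was at 2.19, Pkm at 1.94, Eno1 at 1.57 and Aldoa at 1.19 above microglia, and P4ha1 at -2.30 (-0.97 with 0.5 added). With young pools alone these were 2.57, 2.32, 1.92, 1.53 and -2.29. Ly6CLow cells were higher for 5 (21% of all genes) and lower for 2 (33.2%), with Pgk1 at 0.90 and Eno1 at 0.88.

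In the lymphoid types P4ha1 and Hk2 were again lower than in microglia and Pgk1 higher. CD8+ T cells were higher for 5 (21.3% of all genes) and lower for 4 (33.8%), with Pgk1 at 1.29 and Eno1 at 0.91. ILCs were higher for 5 (20% of all genes) and lower for 3 (34.3%), with Ldha at 1.06. BCells were higher for 4 (19.3% of all genes) and lower for 5 (39.4%), among them Slc2a1 (-0.66), which passed in no other type in this setting and lost its call here without young control replicate 1 (-0.47). Hk2 was at -2.90 in BCells and -3.51 in both CD8+ cells and ILCs. P4ha1 was at -2.36, -2.07 and -2.41. The sizes of both genes' differences depend on the added 0.05: with 0.5 in its place Hk2 was at -1.52, -1.71 and -1.69 and P4ha1 at -1.01, -0.95 and -1.05, still called. With control pools alone Aldoa, Ldha and Pkm were not called in BCells (0.10 to 0.14), and with young pools alone Tpi1 was not called in CD8+ cells (-0.11). Several smaller differences rested on 1 pool: Hif1a in BCells was not called without young control replicate 1 or aged ABX replicate 2 (-0.43 to -0.34), Tpi1 in BCells without any young control pool, aged control replicate 1 or aged ABX replicate 1 (-0.37 to -0.28), Tpi1 in CD8+ cells without aged control or aged ABX replicate 3 (-0.42 to -0.37), and Pkm in CD8+ cells without young control replicate 1 or young ABX replicate 1 or 3 (0.21 to 0.32).

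**Figure D5:**
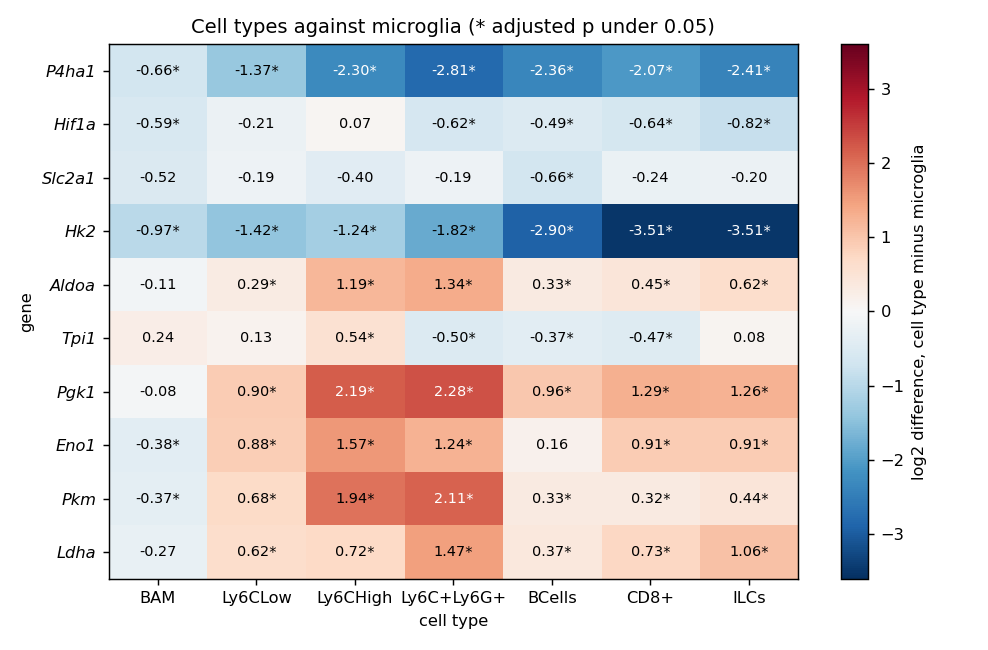
Log2 difference of each cell type (x axis) from microglia for the 10 genes (y axis), coloured from blue (lower) to red (higher); an asterisk marks an adjusted p under 0.05. P4ha1 and Hk2 carry an asterisk in all 7 types, always below 0, and Pgk1 in every type except BAM, always above 0.

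Outside microglia none of the 10 genes was called for ABX or age in any of the 14 comparisons that had at least 2 pools a group, and few genes were called at all. In BAM the shares called over all genes were 0.0113% for ABX in young, 0.158% for ABX in aged and 0.0338% for age in controls. In BCells they were 0%, 0% and 0.0595%, and in Ly6CLow 0%, 0% and 0.755%. CD8+ cells allowed ABX in aged mice (0.121%), ILCs age in controls (0.407%), Ly6C+Ly6G+ age in controls (0%), and Ly6CHigh ABX in aged mice (0%) and age in controls (0.125%). Where the share was 0%, the number of genes with an unadjusted p under 0.05 by limma was 375 and 284 in BCells, 243 in Ly6C+Ly6G+, 163 in Ly6CHigh, and 365 and 535 in Ly6CLow.

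In Ly6CLow cells P4ha1 was at 0.400, 0.181 and 0.360 in aged control and 0.125, 0.188 and 0.160 in aged ABX pools, which overlap (log2 difference -0.76 ± 0.30; limma, adjusted p = 0.750). In BAM Hk2 was at 1.05, 0.700 and 0.903 in aged control and 0.606, 0.318 and 0.720 in aged ABX pools, again overlapping (-0.70 ± 0.26; limma, adjusted p = 0.393). P4ha1 in BAM differed by -0.26 ± 0.28 in aged mice. The standard errors of these genes were 0.26 to 0.30 in both types against 0.07 to 0.08 in microglia, so a missed call does not show that the types differed from microglia in their response.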

How the data were processed

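Per the submitters' processing notes, the authors used Cell Ranger 3.0.2, Seurat 3.0.1 and the mm10 build; the sources used here do not state which covariates entered the depth correction or how cells were filtered. The deposited RNA table holds a score, the SCT-corrected UMI value per gene and cell: all values are whole, and each cell's sum equals the SCT total of the deposited metadata, so no count model was used on them. Raw UMI counts per cell, cell types and hashtags were taken from the metadata the authors deposited; 34 metadata columns and the antibody table were not used. The 10 genes and all lists were chosen with earlier results of these data known.

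For each gene the cells of 1 type and pool gave 1 mean, and log2 (mean + 0.05) was analysed. Genes whose mean over pools reached 0.05 were fitted in limma 3.58.1 (R 4.3.3) with a trended prior variance, 1 mean for each of the 4 groups, and Benjamini-Hochberg adjustment over all genes within a comparison (threshold 0.05). A fold on this scale understates the change of low genes. Types other than microglia used pools with at least 20 cells and at least 2 such pools in each group; types against microglia used a pool block and types with at least 6 pool means, which left out CD4+ cells and 9 NK cells. All cells were used, with no further doublet filter. Each pool mixes mice, so p-values measure the spread between pools. Besides the 10 genes, up to 4 called genes of largest change were named from each list and microglial comparison. Alternatives were 2 other added values (0.5 and 0.01), no filter, means of log values, equal totals, cells of 4000 to 12000 raw UMIs, no highest cell, only the groups compared, the hashtag block, at least 10 cells, control pools only and each pool left out; weighting by cells and young pools only were added after seeing the data. The fits were tested on simulated data.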

Additional observations from a re-analysis of the deposited data

How the results depend on the processing

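No called value of the 10 genes changed sign under any alternative; 114 of their values lost a call and 33 gained one, and 1305 kept sign and side. In aged mice the count of the 10 genes lower with ABX in microglia, 4, became 2 with no filter on low values and 2 with only the pools compared, and 2 to 4 with 1 pool left out. Averaged over both ages the count, 5, was 4 to 6 with 1 pool left out. The count for age in controls, 0, was 2 for means of log values, 1 for equal totals, 2 for cells of 4000 to 12000 raw UMIs, 1 for only the pools compared and 0 to 2 with 1 pool left out. The count for age in ABX mice, 2, was 1 with no filter, 1 without the highest cell, 0 with only the pools compared and 0 to 3 with 1 pool left out. With the replicate block on hashtag number the age count was 1 in controls and 1 in ABX mice; same-numbered young and aged pools correlated between -0.09 and 0.11 in their deviations, so the numbers do not pair the pools, and ABX comparisons cannot be blocked because hashtags are nested in treatment. Among all genes tested in microglia, the number called in either direction also moved over the alternatives: 283 for ABX in aged mice (105 to 449), 12 for ABX in young mice (0 to 58), 473 averaged over both ages (209 to 687), 0 for the difference between the ages (0 to 4), 233 for age in controls (103 to 298) and 539 for age in ABX mice (271 to 773). For BAM against microglia the count, 5, was 2 with control pools only and 2 with young pools only. For BCells, 9, it was 4 for the UMI range, 3 with control pools only, 5 with young pools only and 6 to 9 with 1 pool left out. Control pools only and young pools only also leave fewer pools, and the cause of these changes in count was not tested. The UMI range left too few Ly6CHigh cells for a value. Depth limits the rarer types: with 20 cells in a pool a mean of 0.05 is a summed SCT value of 1.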
